A study of Sus scrofa with 18 samples.

Results

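The circular muscle layer (CM) is the inner of both muscle layers of the uterine wall, which together form the myometrium, and the longitudinal layer (LM) surrounds it. Gene expression in CM of pigs on day 15 of pregnancy, the implantation stage (GD15M_CM), was compared with that on day 12, the pre-implantation stage (GD12M_CM). The comparison took 6 of the 18 libraries of the study, 3 of GD15M_CM and 3 of GD12M_CM, without pairs. Of the 24358 genes in the table, 14376 reached 1 TPM in 3 or more of these 6 libraries and were tested. TPM is a relative abundance that sums to the same total in every library, so the read depth behind a value is unknown.

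All tissue came from Yorkshire gilts and from the mesometrial side of the uterus (M), and it was frozen in embedding compound. The endometrium was cut away from the frozen tissue with scalpel blades before CM and LM were separated. The GD15M and GD12M gilts had been mated naturally, and each was found to carry conceptuses. The 3 GD15M_CM libraries came from 3 gilts and the 3 GD12M_CM libraries from 3 other gilts, so the replicates are animals and each day is another set of animals. CM of 3 cyclic gilts, taken at day 15 of the cycle (CD15M_CM), gave a further level for each gene and shared the estimate of the spread, and LM came from the same gilts. The ages of the gilts are not given in the sources used here.

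Before implantation the pig conceptuses move along the uterine horns, elongate and then attach to the luminal epithelium, and contraction of the myometrium carries them. Elongating pig conceptuses release interferons of type I and type II, and interferon-gamma acts on uterine cells through its receptor and the kinases JAK1 and JAK2, which leads to induction of IRF1, guanylate binding proteins and genes for antigen presentation. The uterine glands secrete carrier proteins, enzymes and nutrients to the conceptuses over the same period.

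The CM libraries carried the defining markers of smooth muscle. The summed level of 8 markers was 24557, 12190.3 and 19804 TPM in GD15M_CM and 24756, 34755 and 17318 TPM in GD12M_CM, and these ranges overlapped. TAGLN and MYL6, which are abundant in smooth muscle, were listed at no more than 34.3 and 2.30 TPM in these 6 libraries, while ACTA2 was at 4001 TPM or more. Epithelial markers were also present, since the sum of 5 matched of 6 listed was 564.7, 826.6 and 346.3 TPM in GD15M_CM and 726.9, 384.1 and 799.9 TPM in GD12M_CM, and that of 3 markers of ciliated epithelium was 135.8, 245.0 and 107.5 TPM in GD15M_CM and 165.1, 115.3 and 165.8 TPM in GD12M_CM. Neither sum separated the days. The GD15M_CM libraries were less alike (mean correlation with their own group 0.937 to 0.941) than the GD12M_CM libraries (0.955 to 0.963). Replicate 2 of GD15M_CM held the highest of the 6 values in 41.6% of the genes tested, and replicate 3 held it for most of the interferon-gamma genes described further on.

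Toward day 15, 3 genes rose and 1 fell in CM. KMO, SLC39A2 and the unnamed gene ENSSSCG00000039815 were higher and DYNLL1 was lower, which was 0.0278% of the genes tested when both an adjusted p below 0.05 and a log2 fold change beyond 1 in size were required (0.0209% higher and 0.00696% lower). At an unadjusted p below 0.05, 1397 genes were higher (9.72% of the genes tested) and 863 were lower (6%). At an adjusted p below 0.1, a threshold chosen after the data were seen, 132 genes passed (0.918%), 82 higher (0.57%) and 50 lower (0.348%). In all 14376 genes the median log2 fold change was 0.06, and 57.2% were above 0. Because whole tissue was sequenced, a change in the number of cells of a type and a change in RNA per cell cannot be told apart.

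KMO, kynurenine 3-monooxygenase, hydroxylates kynurenine in the breakdown of tryptophan. It was at 38.5, 66.5 and 81 TPM in GD15M_CM and at 5.44, 4.64 and 3.53 TPM in GD12M_CM. Every GD15M_CM library lay above every GD12M_CM library, and the CD15M_CM libraries lay between them at 11.7, 12.7 and 17.1 TPM. The mean was 62 ± 21.6 TPM in GD15M_CM and 4.54 ± 0.958 TPM in GD12M_CM (SD, n = 3 gilts each). The log2 fold change, of TPM + 1 here and below, was 3.46 ± 0.29 SE, with an adjusted p of 0.0073 by limma. The gene lies on chromosome 10, from 12442877 to 12489417 in Sscrofa11.1 (ENSSSCG00000025686). In LM it stayed low, at 2.98, 7.10 and 7.12 TPM in GD15M_LM and 3.73, 2.97 and 2.52 TPM in GD12M_LM.

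SLC39A2 (ZIP2) is a plasma membrane transporter that brings zinc into cells. Its level was 1003, 1532 and 783 TPM in GD15M_CM and 102, 109.7 and 189.5 TPM in GD12M_CM, with no overlap and with CD15M_CM between them at 493, 716 and 749.5 TPM (3.04 ± 0.31, adjusted p = 0.015; chromosome 7, 78127628 to 78132900, ENSSSCG00000029754). ENSSSCG00000039815, which has no symbol in the tables used, had the same order of group means, with 177, 388 and 203 TPM in GD15M_CM, 22, 29.3 and 30.5 TPM in GD12M_CM and 122, 121 and 244 TPM in CD15M_CM (3.11 ± 0.35, adjusted p = 0.024). Every GD15M_CM library lay above every GD12M_CM library, and replicates 1 and 3 of GD15M_CM were inside the range of CD15M_CM. In LM, SLC39A2 was at 4.83, 70.3 and 15.1 TPM in GD15M_LM and 9.52, 4.26 and 4.43 TPM in GD12M_LM. ENSSSCG00000039815 was at 2.49, 26.9 and 5.46 TPM in GD15M_LM and 1.34, 1.80 and 2.23 TPM in GD12M_LM. Replicate 2 of GD15M_LM, the highest of its group for both genes, was also the highest for the epithelial marker EPCAM (0.409, 25.4 and 0.884 TPM). The part of residual epithelium in the values of both genes was not tested.

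DYNLL1 encodes a light chain of cytoplasmic dynein, the motor that moves cargo along microtubules, and it binds many other proteins. It fell to 17.4, 13.7 and 9.59 TPM in GD15M_CM, against 70.5, 79.8 and 59.4 TPM in GD12M_CM (-2.31 ± 0.22, adjusted p = 0.013; chromosome 14, 40455954 to 40458352, ENSSSCG00000009904). The CD15M_CM libraries were at 18, 19.4 and 22.6 TPM, above GD15M_CM in each library and far below GD12M_CM. LM differed in the same direction, with 6.76, 10.7 and 11.3 TPM in GD15M_LM and 65.1, 56.4 and 63.7 TPM in GD12M_LM (log2 fold change -2.59), but in LM 0 genes passed by limma and 694 were at an unadjusted p below 0.05. DYNLL2, its close paralog, was at 1028, 809 and 696 TPM in GD15M_CM and 651, 774 and 544 TPM in GD12M_CM, and how reads shared by both were assigned is not given in the sources used here.

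**Figure D1:**
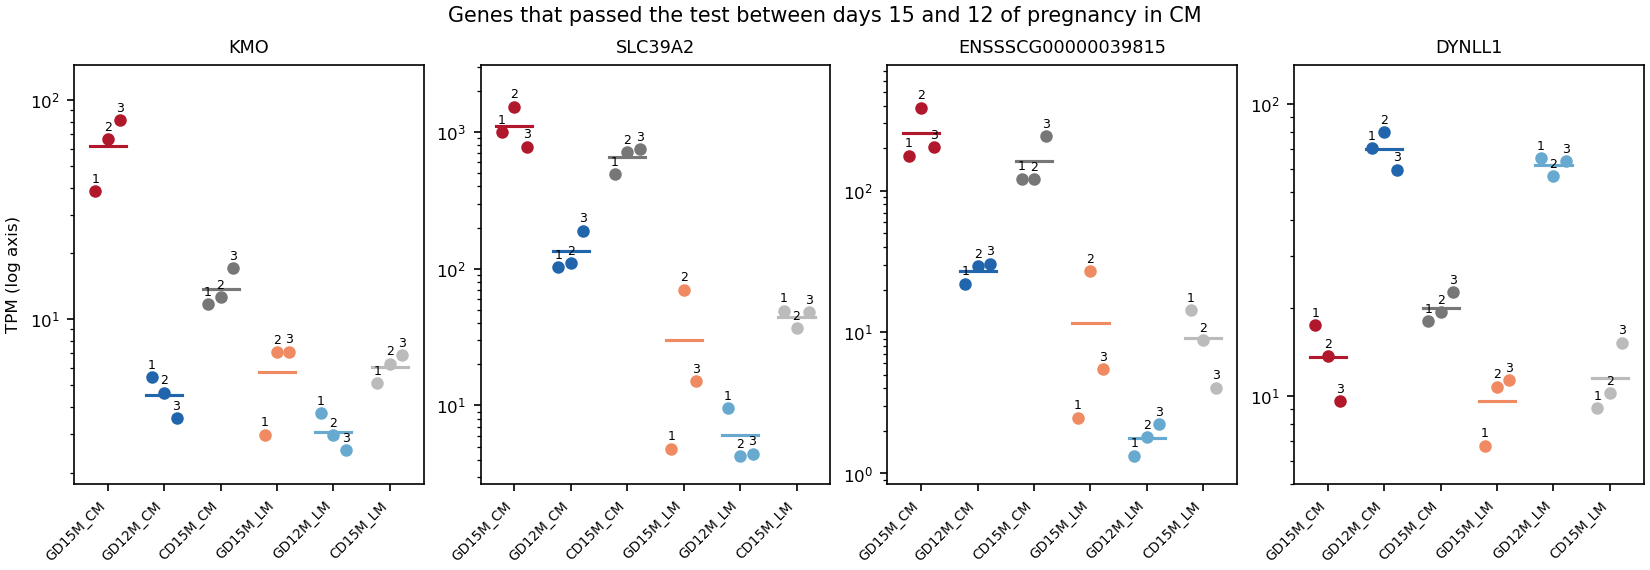
TPM on a log axis of the genes that passed the test between GD15M_CM and GD12M_CM, in each library of the 6 groups; points are libraries numbered by replicate and lines are group means. KMO, SLC39A2 and ENSSSCG00000039815 were higher and DYNLL1 was lower in all 3 GD15M_CM libraries than in all 3 GD12M_CM libraries.

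These calls depended on how the spread was estimated and on single libraries. With only the 6 libraries compared in the fit, 0 genes passed, the smallest adjusted p was 0.053 and 1897 genes were at an unadjusted p below 0.05. Without GD12M_CM replicate 1 only KMO passed, without GD15M_CM replicate 1 a total of 320 genes passed (268 higher, 1.89% of the genes tested in that fit, and 52 lower, 0.366%), and the other single libraries left between 3 and 14. KMO passed in 16 of the 17 alternative fits, DYNLL1 and SLC39A2 in 15, and ENSSSCG00000039815 in 12, always with the same sign.

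Of 11 kynurenine pathway genes tested, KMO alone passed and the median was 0.21. KYNU, kynureninase, acts on the product of KMO and was at 1.33, 1.77 and 8.56 TPM in GD15M_CM and 0.877, 0.575 and 0.677 TPM in GD12M_CM, without overlap (1.21 ± 0.49, adjusted p = 0.27). No GD12M_CM library reached 1 TPM of KYNU, so it entered the test through GD15M_CM and its direction there was fixed. The median of the other 10 genes was 0.15. IDO1, which starts the pathway and is induced by interferon-gamma in human and mouse cells, did not reach 1 TPM in 3 libraries and was not tested, with 3.45, 0.311 and 22.7 TPM in GD15M_CM and 0.962, 0.0759 and 0.322 TPM in GD12M_CM. SLC7A5, a carrier of tryptophan and other large neutral amino acids, was at 17.2, 61.8 and 18.7 TPM in GD15M_CM and 134, 49.1 and 138 TPM in GD12M_CM, with overlap.

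Among 21 zinc transporters and metallothioneins tested, SLC39A2 was the one that passed, and the median was -0.12. A further pair of members above a log2 fold change of 1 did not overlap between the days. MT1X, a metallothionein that binds zinc in the cytosol, was at 4758, 3986 and 4788 TPM in GD15M_CM and 1039, 1237 and 2017 TPM in GD12M_CM (1.71 ± 0.27, adjusted p = 0.062). SLC30A2 (ZnT2), which loads zinc into secretory vesicles, was at 326, 791 and 208 TPM in GD15M_CM and 39.5, 93 and 50.7 TPM in GD12M_CM (2.70 ± 0.50, adjusted p = 0.079). Such separated members with a log2 fold change above 1 were 3 of 21 here, against 2.76% of all genes tested, and 0 lay separated below -1, against 1.49%. These 3 include SLC39A2 itself, and the list was chosen with earlier results of these data known, so the count is not independent evidence. Of the 21, 13 were below 0. The importer SLC39A6 lay the other way, at 11.9, 17.2 and 15.6 TPM in GD15M_CM and 23.3, 20.1 and 20.1 TPM in GD12M_CM. Metallothionein genes are near copies of each other, so the share of reads assigned to MT1X is uncertain. In CD15M_CM, MT1X was at 2863, 2247 and 2389 TPM. SLC30A2 was there at 165, 198 and 357 TPM, which overlapped with GD15M_CM. Replicate 2 of GD15M_LM, the highest of its group for EPCAM, was also the highest for MT1X (14.2, 411 and 94.3 TPM) and SLC30A2 (1.37, 56.7 and 4.72 TPM). The part of residual epithelium in the values of MT1X and SLC30A2 was not tested.

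Of 21 genes of cytoplasmic dynein, dynactin and their light chain partners, DYNLL1 passed and the median was -0.10. BMF, a pro-apoptotic protein that a dynein light chain holds at the cytoskeleton, was at 12.2, 16.7 and 15.7 TPM in GD15M_CM and 3.83, 3.76 and 5.33 TPM in GD12M_CM (1.58 ± 0.22, adjusted p = 0.058). The other members separated between the days, such as the motor's light intermediate chain DYNC1LI1 and the dynactin subunit DCTN2, differed by less than 0.5 on the log2 scale.

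In all, 266 genes with a symbol were separated upward and 148 downward, with a mean of at least 5 TPM in either group and a log2 fold change beyond 1 in size. Of the 12 with the smallest p in each direction, KMO, SLC39A2 and DYNLL1 passed and the others missed the threshold, at adjusted p between 0.056 and 0.062. SMIM32, a small membrane protein, was at 21, 66.7 and 61.8 TPM in GD15M_CM, 1.02, 4.0 and 0.513 TPM in GD12M_CM (4.19 ± 0.55), and at 0.891, 0 and 0.441 TPM in CD15M_CM. FAM167B was at 414, 228 and 239 TPM in GD15M_CM and 42.8, 45.9 and 78.8 TPM in GD12M_CM (2.37 ± 0.32), and at 13.2, 21.9 and 22.8 TPM in CD15M_CM. In this pair of genes the mean of CD15M_CM lay below those of both pregnant groups. IFNE, an interferon made by epithelium of the female reproductive tract in mice and women, was at 13.4, 15 and 8.34 TPM in GD15M_CM and 1.37, 1.36 and 2.20 TPM in GD12M_CM (2.30 ± 0.32), but at 7.17, 11.3 and 16.1 TPM in CD15M_CM. GRIK4, a kainate receptor subunit (1.79 ± 0.26), GSAP, a regulator of gamma-secretase (1.34 ± 0.21), the lysosomal enzyme MANBA (1.09 ± 0.16) and the ciliary protein CYS1 (1.09 ± 0.15) had smaller differences. In each of these, the GD12M_CM libraries lay below the CD15M_CM libraries too.

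The genes with the smallest p that lay lower on day 15 included receptors and a biosynthetic enzyme. ODC1, which makes putrescine in the first step of polyamine synthesis, was at 153, 151 and 84.8 TPM in GD15M_CM and 688, 448 and 1286 TPM in GD12M_CM (-2.55 ± 0.39). VIPR2, a receptor for vasoactive intestinal peptide and PACAP, was at 15.7, 9.83 and 11.5 TPM in GD15M_CM and 40.6, 46 and 32.1 TPM in GD12M_CM (-1.61 ± 0.20). DRD2, a dopamine receptor, was at 3.68, 4.82 and 3.31 TPM in GD15M_CM and 28.4, 25.9 and 11.7 TPM in GD12M_CM (-2.14 ± 0.31). These genes were chosen among those with separate groups, so their separation is no further result. GD12M_CM held the highest values of the 9 CM libraries in them. RAMP1, which forms the receptor for calcitonin gene-related peptide, had a log2 fold change of -1.57 ± 0.26 and PAQR8, a membrane progesterone receptor, one of -1.98 ± 0.32. HSPA8, the constitutive heat shock cognate protein, was at 443, 568 and 497 TPM in GD15M_CM and 1003, 1187 and 879.7 TPM in GD12M_CM (-1.02 ± 0.17). The others were the histone chaperone family member NPM3 (-1.5 ± 0.24), the receptor for retrieval to the endoplasmic reticulum KDELR3 (-1.21 ± 0.19), the membrane scaffold PDZK1 (-1.97 ± 0.30), LRRN1 (-2.07 ± 0.34) and TGFB3, which is described with the gland genes.

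**Figure D2:**
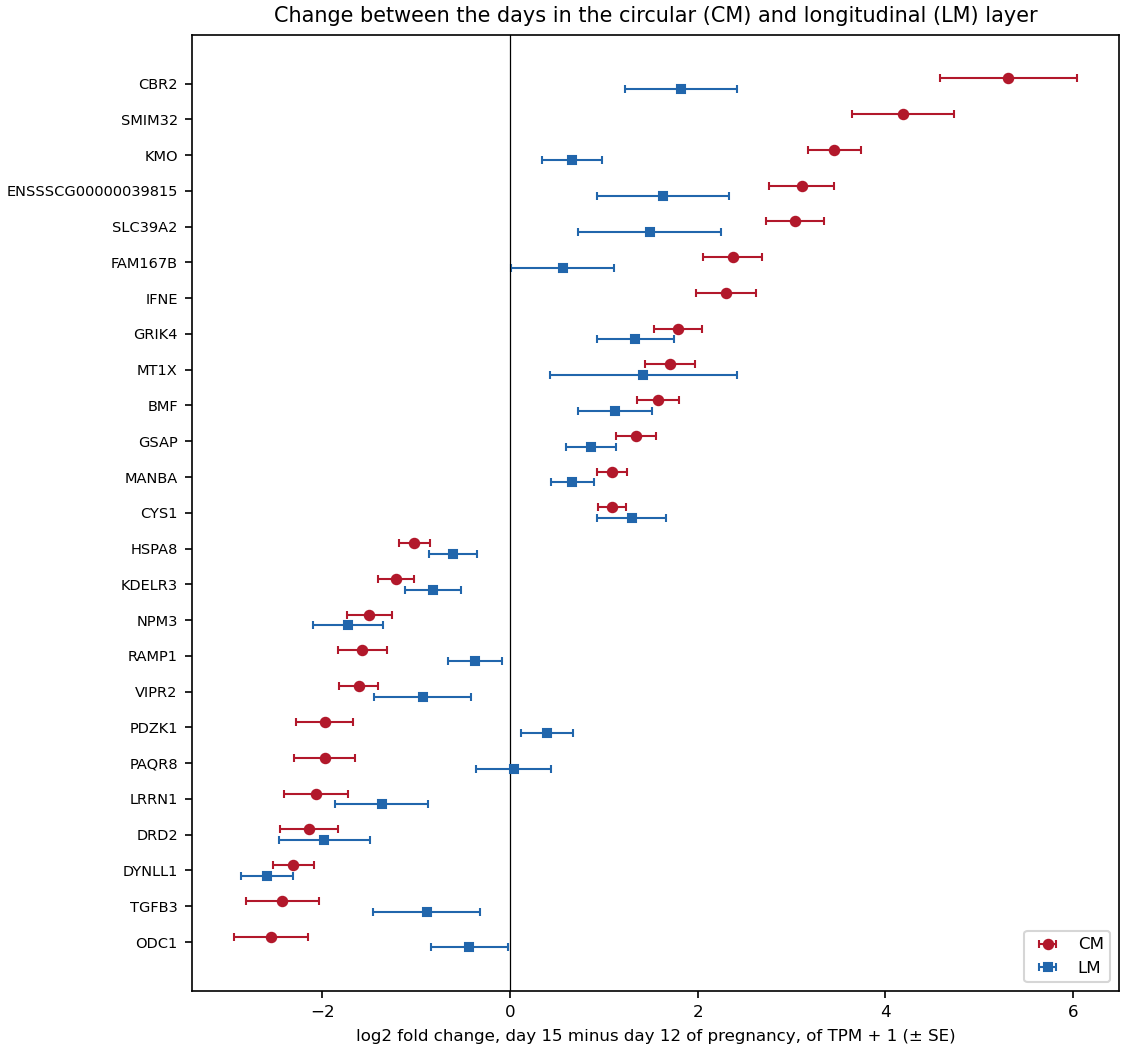
Log2 fold change of TPM + 1 between days 15 and 12 of pregnancy, with its SE, in CM (circles) and LM (squares) for the genes that passed and those with the smallest p in each direction; SMIM32 and IFNE were too low to be tested in LM. DYNLL1 was at -2.31 in CM and -2.59 in LM, while KMO was at 3.46 in CM and 0.66 in LM.

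The difference between the layers in these effects was tested for all 15343 genes of both layers with the gilt as a block, and 3 passed (0.0196%), 1 of them higher in CM (0.00652%) and 2 lower (0.013%). The difference passed for KMO, at 2.80 ± 0.24 (adjusted p = 0.0073). LRP2, megalin, an endocytic receptor of absorptive epithelia, was at 0.202, 3.93 and 0.390 TPM in GD15M_CM and 6.29, 8.70 and 8.20 TPM in GD12M_CM, and at 0.184, 2.46 and 0.187 TPM in GD15M_LM and 0.248, 0.293 and 0.165 TPM in GD12M_LM. The day effect of LRP2 was thus more negative in CM, by -2.56 ± 0.29 (adjusted p = 0.033). LRP2 was close to 0 TPM in GD12M_LM, so a fall in LM could hardly have been seen. The raised LM value was that of GD15M_LM replicate 2, which was also the highest of its group for EPCAM (0.409, 25.4 and 0.884 TPM). In CM alone LRP2 did not pass (-2.10 ± 0.49, adjusted p = 0.12). For SLC39A2, ODC1, TGFB3 and CBR2 the log2 fold change in CM was also the larger in size, but the differences did not pass.

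Genes of uterine gland secretion lay on either side of 0. The list of 20 gland and receptivity genes had a median of 0.12, 0 members passed, and at an unadjusted p below 0.05 there were 3 higher and 3 lower. Over all genes tested, 9.72% were higher and 6% lower at that threshold. ACP5 (uteroferrin), an iron-carrying phosphatase that pig uterine glands secrete, was at 108, 1117 and 552 TPM in GD15M_CM and 9.51, 34.2 and 6.63 TPM in GD12M_CM (4.85 ± 0.98, adjusted p = 0.086). SAL1, a lipocalin that carries small hydrophobic ligands, was at 1577, 2719 and 120.1 TPM in GD15M_CM and 11548, 7153 and 14706 TPM in GD12M_CM (-3.73 ± 1.04, adjusted p = 0.16). Both were separated between the days with a wide spread inside GD15M_CM, where replicate 1 was lowest for ACP5 and replicate 3 for SAL1. TGFB3, a growth factor of the TGF-beta family, was at 22.7, 13.6 and 20.6 TPM in GD15M_CM and 178, 115 and 55 TPM in GD12M_CM (-2.43 ± 0.39, adjusted p = 0.062), and TGFB1 was at 53.8, 71.3 and 68.8 TPM in GD15M_CM and 29.9, 50.1 and 36.1 TPM in GD12M_CM (0.75 ± 0.20, adjusted p = 0.15). RBP4, a carrier of retinol chosen here after its values were seen, was at 62, 3453 and 575 TPM in GD15M_CM and 129, 150.4 and 77.4 TPM in GD12M_CM. Replicate 1 of GD15M_CM lay below the 3 GD12M_CM libraries and replicates 2 and 3 above them.

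Of 14 genes of luminal and glandular epithelium, 7 were above 0, 0 passed and the median was -0.06. At an unadjusted p below 0.05, 2 were higher, against 9.72% of all genes tested. CLDN4, a tight junction claudin, was at 77.7, 249.7 and 146 TPM in GD15M_CM and 67.2, 73.2 and 42.8 TPM in GD12M_CM. TPPP3, a microtubule-binding protein listed with the ciliated cell genes, was at 39, 31.8 and 27.4 TPM in GD15M_CM. In GD12M_CM it was at 79.8, 57.6 and 85.2 TPM (-1.15 ± 0.22, adjusted p = 0.084). The 13 ciliated cell genes had a median of -0.01. CLDN4 and TPPP3 were separated between the days. TPPP3 was not particular to CM, with 12.7, 18.6 and 23.8 TPM in GD15M_LM and 41.5, 49.9 and 90.7 TPM in GD12M_LM. EPCAM, which marks epithelium of any kind, was at 72.5, 109 and 46.4 TPM in GD15M_CM and 83.9, 32.6 and 91.6 TPM in GD12M_CM, with overlap. The summed epithelial markers given above overlapped between the days too, and the part of residual endometrium in the values of the gland and epithelial genes was not tested.

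Among 19 prostaglandin genes the median was 0.20 and 0 passed, with 2 higher and 2 lower at an unadjusted p below 0.05. These counts were near the shares over all genes tested, 9.72% higher and 6% lower. CBR2, a carbonyl reductase, had the largest fold of the genes named here, with 1908, 994 and 1762 TPM in GD15M_CM, 18.2, 64.6 and 41.7 TPM in GD12M_CM and 69.6, 425 and 545 TPM in CD15M_CM (5.31 ± 0.73, adjusted p = 0.057). CBR1, a carbonyl reductase that can turn prostaglandin E2 into F2-alpha, was at 2.58, 0.0884 and 5.10 TPM in GD15M_CM and 16.3, 10.3 and 10.6 TPM in GD12M_CM (-2.19 ± 0.66, adjusted p = 0.18). Both pairs of groups were separate, in opposite directions, and reads shared by related reductases were assigned in a way that the sources used here do not give. HPGD, which inactivates prostaglandins, was at 16.8, 19.2 and 15.8 TPM in GD15M_CM and 52.4, 24.4 and 24.3 TPM in GD12M_CM (-0.84 ± 0.31, adjusted p = 0.25). PTGFR, the receptor of prostaglandin F2-alpha, was at 22.2, 14 and 16.7 TPM in GD15M_CM and 18.4, 14.6 and 15.1 TPM in GD12M_CM, with overlap.

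**Figure D3:**
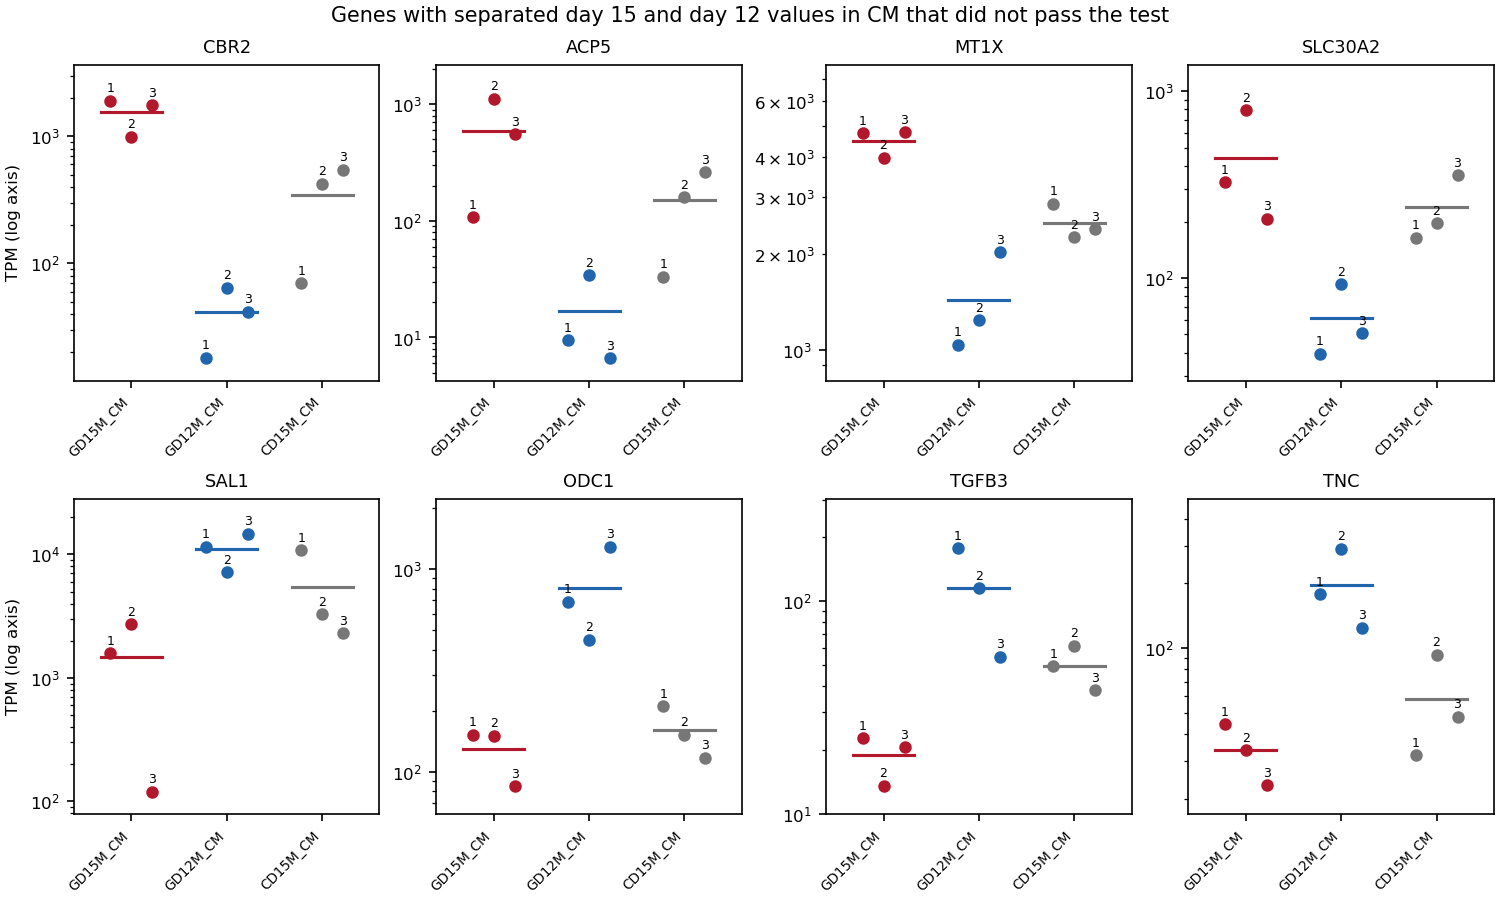
TPM on a log axis in each CM library of GD15M_CM, GD12M_CM and CD15M_CM for 8 genes whose GD15M_CM and GD12M_CM values did not overlap but which did not pass the test; points are libraries numbered by replicate and lines are group means. CBR2, ACP5, MT1X and SLC30A2 were higher and SAL1, ODC1, TGFB3 and TNC lower in the 3 GD15M_CM libraries than in the 3 GD12M_CM libraries.

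Genes regulated by interferon-gamma were higher in GD15M_CM in every member tested of the list that the study picked, and 0 of them passed. The 12 members had a median of 1.78, all 12 were at an unadjusted p below 0.05 (9.72% of all genes tested were so and higher), and 7 were separated with a log2 fold change above 1 (2.76% of all genes tested). The study picked this list on these libraries, so its direction is not independent evidence. IRF1, a transcription factor induced by interferon-gamma, was at 153, 68.2 and 817 TPM in GD15M_CM and 42.4, 23.2 and 26.3 TPM in GD12M_CM (2.75 ± 0.73, adjusted p = 0.14). GBP1, a guanylate binding protein of cell-autonomous defense, was at 47.9, 13.8 and 659 TPM in GD15M_CM and 10.5, 3.66 and 4.01 TPM in GD12M_CM (3.60 ± 1.11, adjusted p = 0.18). In both, the groups did not overlap and replicate 3 of GD15M_CM stood far above the other GD15M_CM libraries.

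The members that serve antigen presentation by MHC class I spread in the same way. PSMB9, a subunit of the immunoproteasome, was at 118, 56.2 and 562 TPM in GD15M_CM and 65.5, 20 and 21.8 TPM in GD12M_CM, and TAP1, the peptide transporter, was at 151, 72.1 and 549 TPM in GD15M_CM and 89.5, 32.4 and 46.1 TPM in GD12M_CM. NLRC5, the transactivator of MHC class I genes, was at 20.5, 16.7 and 102 TPM in GD15M_CM and 11.1, 3.87 and 3.33 TPM in GD12M_CM. Of these, NLRC5 was separated between the days. In the list of MHC class I and peptide loading genes, 7 of 10 tested were above 0 and the median was 0.59. At an unadjusted p below 0.05, 3 were higher (9.72% of all genes tested), and 0 were separated with a log2 fold change above 1. The list summed to 2170, 2594 and 2975 TPM in GD15M_CM and 3328, 2404 and 2976 TPM in GD12M_CM, with overlap. For MHC class II, the transactivator CIITA was at 21.1, 18.1 and 115 TPM in GD15M_CM and 10.6, 10.7 and 9.43 TPM in GD12M_CM, and CD74, the invariant chain, was at 304, 361 and 958 TPM in GD15M_CM and 219, 155 and 126 TPM in GD12M_CM (1.53 ± 0.41, adjusted p = 0.14). Both class II genes were separated, with replicate 3 highest. SLA-DMA and SLA-DMB, which load class II molecules, had log2 fold changes of 1.71 ± 0.53 and 2.02 ± 0.56, and they belong to a family of similar genes whose shared reads make their levels less certain.

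Replicate 3 of GD15M_CM held the highest of the 6 values in 12 of 12 members, against 14.4% of all genes tested. Summed over the list, the level was 979, 566 and 4769 TPM in GD15M_CM and 526, 247 and 297 TPM in GD12M_CM. Without that library the median was 0.99 and 0 members passed, in a fit in which 2 genes were higher (0.0141%) and 1 lower (0.00706%). The median was 2.05 without replicate 1 and 2.39 without replicate 2. When libraries were weighted by their fit, 12 of 12 members passed, in a fit in which 4.65% of all genes passed as higher and 3.67% as lower. In that fit GD12M_CM replicate 1 had the largest weight (4.45), and GD15M_CM replicate 3 had 2.19 against 0.410 and 0.324 for the other GD15M_CM libraries (replicates 1 and 2). Summed T cell markers were also higher in replicates 2 and 3 of GD15M_CM than in GD12M_CM, as given below, and their part in the interferon-gamma genes was not tested. In LM of the same gilts the list had a median of 0.86, and 0 of its members passed.

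The 20 other interferon-gamma response genes had a median of 1.17, and 12 were at an unadjusted p below 0.05 and above 0 (9.72% of all genes tested). GBP2 was at 46.3, 24.8 and 413 TPM in GD15M_CM and 10.8, 6.34 and 8.96 TPM in GD12M_CM, SOCS1, a feedback inhibitor of the receptor, at 36.3, 33.5 and 161 TPM in GD15M_CM and 18.2, 13.4 and 16.2 TPM in GD12M_CM, and UBD, a ubiquitin-like modifier, at 40.1, 68 and 208 TPM in GD15M_CM and 28.6, 11.2 and 10.5 TPM in GD12M_CM. All of these were separated. The receptor chains were also measured. IFNGR1 was at 21.1, 22.3 and 24.9 TPM in GD15M_CM and 32.5, 32.2 and 24.6 TPM in GD12M_CM (-0.37 ± 0.18), and IFNGR2 at 34.7, 37.3 and 35.9 TPM in GD15M_CM and 29.3, 31.9 and 35.3 TPM in GD12M_CM (0.16 ± 0.13). IFNG, the ligand, was below 1 TPM in all 6 libraries and was not tested. Without GD15M_CM replicate 3 the median of these genes was 0.57.

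Genes that respond to type I interferons had a lower median than the interferon-gamma lists. Of 30 tested, 0 were separated between the days, against 11.1% of all genes tested as higher and 7.55% as lower, and 2 were higher at an unadjusted p below 0.05, against 9.72% of all genes tested. The median was 0.44. A GD12M_CM library was high here. MX1, an antiviral GTPase, was at 67.7, 59.6 and 175 TPM in GD15M_CM and 390.0, 48.2 and 44.6 TPM in GD12M_CM, and ISG15, a ubiquitin-like protein, was at 44.8, 50.5 and 95.9 TPM in GD15M_CM and 240.1, 34.7 and 50.2 TPM in GD12M_CM, both chosen after their values were seen. The highest of the 6 values lay in GD15M_CM replicate 3 for 16 of the 30 genes and in GD12M_CM replicate 1 for 13. The median was 1.09 without GD12M_CM replicate 1 and 0.0079 without GD15M_CM replicate 3, and between 0.04 and 0.68 when any other single library was left out.

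**Figure D4:**
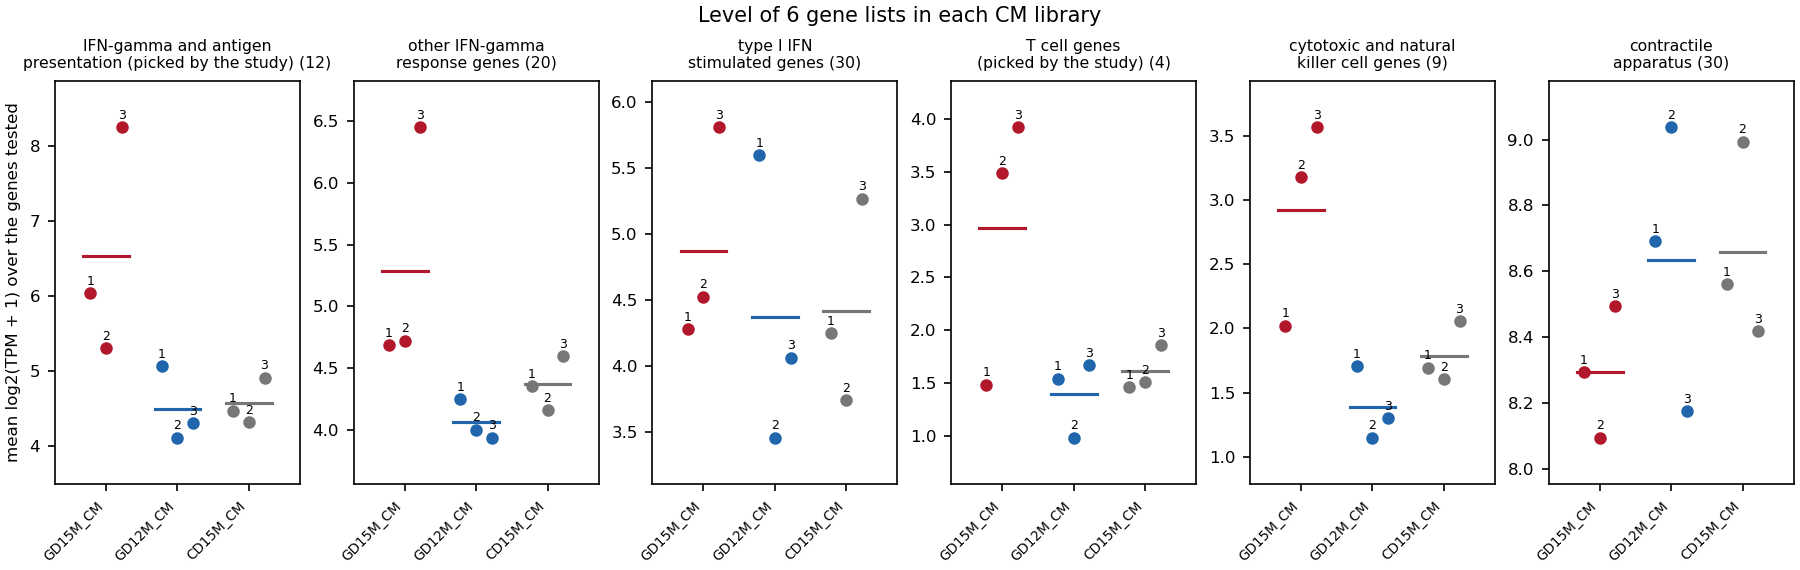
Mean log2(TPM + 1) over the tested genes of 6 lists in each CM library, with the number of genes in brackets; points are libraries numbered by replicate and lines are group means. GD15M_CM replicate 3 was highest in both interferon-gamma lists, GD15M_CM replicates 2 and 3 were highest in the T cell and cytotoxic lists, and GD12M_CM replicate 1 lay next to GD15M_CM replicate 3 in the type I interferon list.

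Lymphocyte genes differed between the gilts of day 15. All 4 tested of the study's T cell genes were above 0, with a median of 1.52, 0 passed or were separated, and all 4 were at an unadjusted p below 0.05, against 0 without GD15M_CM replicate 2, GD15M_CM replicate 3 or GD12M_CM replicate 2. This list too was picked by the study on these libraries and is not independent evidence of its direction. CD3E, a chain of the T cell receptor complex, was at 1.91, 11 and 13.1 TPM in GD15M_CM and 2.06, 1.39 and 2.12 TPM in GD12M_CM (1.48 ± 0.53, adjusted p = 0.23). CD8A, the coreceptor of cytotoxic T cells, was at 1.59, 11.2 and 14.4 TPM in GD15M_CM and 1.67, 0.718 and 1.91 TPM in GD12M_CM (1.73 ± 0.59, adjusted p = 0.21). Replicates 2 and 3 of GD15M_CM were high in both, whereas replicate 1 was inside the range of GD12M_CM. LCK, the kinase of the T cell receptor, had the same pattern, with 1.64, 7.53 and 12.4 TPM in GD15M_CM and 1.65, 0.595 and 2.17 TPM in GD12M_CM (1.5 ± 0.54). Without replicate 1 all 4 passed and their median was 2.25, while 1.89% of all genes tested passed as higher in that fit. The 4 matched of 5 T cell markers summed to 10.5, 41.2 and 81.0 TPM in GD15M_CM and 13.0, 5.54 and 10.5 TPM in GD12M_CM. In a longer list of 16 T cell genes 7 were tested, and 2 of these entered through GD15M_CM alone. The other 5 were above 0 with a median of 0.74. Of them, 1 was separated with a log2 fold change above 1 (2.76% of all genes tested). At an unadjusted p below 0.05, 2 of them were higher (9.72% of all genes tested). Without GD15M_CM replicate 3, 5 genes of this list were tested, with a median of 0.42.

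Of 18 cytotoxic and natural killer cell genes, 9 were high enough to be tested, and 2 of these had no GD12M_CM library at 1 TPM, so that they entered through GD15M_CM and had to be higher there. The other 7 were above 0 with a median of 1.47, and 4 of them were separated with a log2 fold change above 1, against 2.76% of all genes tested. At an unadjusted p below 0.05 all of these 7 were higher, against 4 of 7 genes tested without GD15M_CM replicate 2 and 5 of 7 genes tested without replicate 3. NKG7, a granule protein, was at 13.3, 31.9 and 47.7 TPM in GD15M_CM and 10.4, 8.70 and 9.05 TPM in GD12M_CM (1.45 ± 0.40, adjusted p = 0.16). GNLY, a pore-forming protein, was at 10.7, 17 and 42.2 TPM in GD15M_CM and 8.84, 1.76 and 0 TPM in GD12M_CM (2.79 ± 0.80, adjusted p = 0.17). These were separated, and replicate 3 was the highest in both.

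In the B and plasma cell list 9 were tested, of which 1 had no GD12M_CM library at 1 TPM and had to be higher in GD15M_CM, and 6 of the other 8 were above 0. JCHAIN, which joins secreted antibodies, was at 78.3, 159 and 163 TPM in GD15M_CM and 32.8, 9.38 and 46 TPM in GD12M_CM (2.33 ± 0.61, adjusted p = 0.14), and CD15M_CM was at 96.4, 55.8 and 204 TPM, which overlapped with GD15M_CM. The macrophage list had 13 of 15 above 0, a median of 0.84 and 7 higher at an unadjusted p below 0.05 (9.72% of all genes tested). Without GD15M_CM replicate 3 the median was 0.48 with 2 such genes, and 3 such genes were left without GD12M_CM replicate 3. CSF1R, the receptor that macrophages need for survival, was at 21.2, 39 and 36 TPM in GD15M_CM and 16.3, 21.1 and 14 TPM in GD12M_CM (0.84 ± 0.25, adjusted p = 0.17). CD14, a receptor for bacterial lipopolysaccharide, was at 14.8, 55.5 and 26.2 TPM in GD15M_CM and 12.2, 14.3 and 11.2 TPM in GD12M_CM. The groups were barely apart in both. CD163, a scavenger receptor of macrophages, was at 6.72, 22.1 and 4.85 TPM in GD15M_CM and 11, 23.5 and 13.9 TPM in GD12M_CM, with overlap and a negative log2 fold change (-0.69 ± 0.49, adjusted p = 0.54). Of 12 endothelial and lymphatic genes 11 were above 0 and 4 were separated and higher, against 11.1% of all genes tested, with a median of 0.44 (0.29 without GD15M_CM replicate 2). PLVAP, a protein of endothelial diaphragms, was at 50.3, 67.9 and 47.8 TPM in GD15M_CM and 35.7, 39.1 and 33.3 TPM in GD12M_CM (0.59 ± 0.16, adjusted p = 0.15).

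Complement and chemokine genes were separated between the days in a few members, and 0 passed. At an unadjusted p below 0.05, 4 of 9 complement genes were higher, and 6 of 17 genes of chemokines and their receptors were higher and 1 lower. The shares over all genes tested were 9.72% higher and 6% lower. Separated and higher were 3 of the 9 and 4 of the 17, against 11.1% of all genes tested. CFD, complement factor D, was at 169, 269 and 236 TPM in GD15M_CM and 113, 96.3 and 75 TPM in GD12M_CM (1.23 ± 0.25, adjusted p = 0.089). CXCL12, a chemokine of stromal cells, was at 29.7, 39 and 41.2 TPM in GD15M_CM and 12.2, 14.6 and 25.6 TPM in GD12M_CM (1.08 ± 0.28, adjusted p = 0.14). CCL21, a chemokine of lymphatic vessels, was at 117, 112 and 172 TPM in GD15M_CM and 74.1, 82.7 and 65.8 TPM in GD12M_CM. CCL5, which attracts T cells, overlapped, and replicates 2 and 3 of GD15M_CM were high, with 12.6, 86.2 and 129 TPM in GD15M_CM and 14.9, 6.85 and 10.5 TPM in GD12M_CM.

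Contractile genes lay mostly below the median of all genes. Of 30 tested, 26 were below 0, 0 passed and 3 were lower at an unadjusted p below 0.05 (6% of all genes tested). The median was -0.25, against 0.06 for all genes. That median was -0.04 without GD12M_CM replicate 2, -0.49 without GD12M_CM replicate 3 and -0.14 without GD15M_CM replicate 2. The heavy chain of smooth muscle myosin, MYH11, was at 1127, 988 and 1615 TPM in GD15M_CM and 1702, 1929 and 985 TPM in GD12M_CM (-0.28 ± 0.33). MYLK, the kinase that activates myosin, was at 1948, 1246 and 1845 TPM in GD15M_CM and 2436, 2970.3 and 1909 TPM in GD12M_CM (-0.54 ± 0.26). Groups overlapped in both, and GD12M_CM replicate 2 held the highest value of the 6 libraries in 22 of the 30 genes and in the summed smooth muscle markers. PPP1R14A, an inhibitor of myosin phosphatase, was at 210.2, 107 and 215 TPM in GD15M_CM and 316, 386 and 248 TPM in GD12M_CM (-0.88 ± 0.30, adjusted p = 0.21). PPP1R12B, a regulatory subunit of that phosphatase, was at 295, 267 and 341 TPM in GD15M_CM and 572, 463 and 399.9 TPM in GD12M_CM (-0.66 ± 0.22, adjusted p = 0.21). ACTC1, cardiac actin, was at 0.864, 1.17 and 0.261 TPM in GD15M_CM and 20.3, 11.2 and 1.76 TPM in GD12M_CM (-2.38 ± 0.66, adjusted p = 0.15). These 3 of the 30 were the contractile genes separated between the days, all lower in GD15M_CM. Over all genes tested, 7.55% were separated and lower and 11.1% separated and higher.

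The other contraction genes that the study picked did not pass. Log2 fold changes were -0.49 ± 0.41 for smoothelin (SMTN), -0.26 ± 0.29 for the myosin light chain MYL9, -0.44 ± 0.73 for the adrenergic receptor ADRA2A, 0.11 ± 0.19 and -0.04 ± 0.26 for the phospholipases PLCB3 and PLCB4, 0.03 ± 0.38 for the inositol trisphosphate receptor ITPR1, -0.13 ± 0.26 for its partner IRAG1 and -0.12 ± 0.31 for the kinase CAMKK1. All of these overlapped. The SE of ADRA2A also drew on the spread of CD15M_CM, whose libraries were at 342.1, 400.9 and 38.5 TPM. The SD of ADRA2A was 25.6 TPM in GD15M_CM, 27.03 TPM in GD12M_CM and 194.5 TPM in CD15M_CM. Among 34 receptors and channels of contraction the median was 0.01. ADRA1B, an alpha-1 adrenergic receptor, was at 20.8, 27.1 and 27.8 TPM in GD15M_CM and 10.1, 13.7 and 8.86 TPM in GD12M_CM (1.15 ± 0.22, adjusted p = 0.084). The connexin GJC1, which joins smooth muscle cells, was at 16.9, 17.6 and 17.4 TPM in GD15M_CM and 26.1, 37.7 and 22.1 TPM in GD12M_CM (-0.66 ± 0.23, adjusted p = 0.21). Both were separated. OXTR, the oxytocin receptor, was near 1 to 2 TPM, with 1.07, 2.18 and 1.61 TPM in GD15M_CM and 2.18, 1.53 and 0.775 TPM in GD12M_CM.

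Matrix genes had the lowest median of the 33 lists. Of 23 fibroblast and matrix genes, 14 were below 0, the median was -0.35, and 10 were separated and lower in GD15M_CM, against 7.55% of all genes tested. The median was -0.20 without GD12M_CM replicate 2, -0.54 without GD12M_CM replicate 3 and -0.23 without GD15M_CM replicate 1. TNC, tenascin C, an extracellular matrix protein of remodeling tissue, was at 44.4, 33.6 and 23 TPM in GD15M_CM and 178, 290.1 and 125 TPM in GD12M_CM (-2.48 ± 0.42, adjusted p = 0.066). TIMP1, an inhibitor of matrix metalloproteinases, was at 434, 337 and 303 TPM in GD15M_CM and 563, 956 and 659.7 TPM in GD12M_CM (-1.0 ± 0.22, adjusted p = 0.10). FN1, fibronectin, was at 269, 166 and 169.6 TPM in GD15M_CM and 548, 591 and 288 TPM in GD12M_CM (-1.20 ± 0.48, adjusted p = 0.26). The 3 GD15M_CM libraries lay below the 3 GD12M_CM libraries in each of these. COL1A1, a chain of collagen I, was at 6665, 4762 and 6184 TPM in GD15M_CM and 11080.1, 12957 and 8269 TPM in GD12M_CM (-0.87 ± 0.42, adjusted p = 0.36). It was separated too, and the sum of 4 fibroblast markers, of which COL1A1 is one, was 13101, 8644 and 12809 TPM in GD15M_CM and 15571, 18180 and 13503 TPM in GD12M_CM. The other markers in that sum, DCN, LUM and PDGFRA, overlapped between the days, and the median log2 fold change of the 4 was 0.04. DCN was at 5887, 3366 and 6019 TPM in GD15M_CM and 3913, 4732 and 4759 TPM in GD12M_CM.

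Receptors of steroid hormones were on either side. NR3C1, the glucocorticoid receptor, was at 18.2, 22.9 and 26.7 TPM in GD15M_CM and 12.8, 14.7 and 12.5 TPM in GD12M_CM (0.71 ± 0.17, adjusted p = 0.13). PGR, the progesterone receptor, was at 12.8, 15.3 and 16.6 TPM in GD15M_CM and 34.3, 18.8 and 22.4 TPM in GD12M_CM (-0.68 ± 0.26, adjusted p = 0.25). The days were separated in both genes. ESR1, the estrogen receptor, overlapped, with 111, 85.4 and 62.7 TPM in GD15M_CM and 189.8, 75.6 and 152 TPM in GD12M_CM.

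Among 16 clock genes 14 were above 0, the median was 0.44 and 7 were higher at an unadjusted p below 0.05 (9.72% of all genes tested). The median was 0.68 without GD15M_CM replicate 1. TEF, a transcription factor of the clock output, was at 89.6, 139.7 and 133 TPM in GD15M_CM and 49, 60.7 and 56.1 TPM in GD12M_CM (1.09 ± 0.20, adjusted p = 0.079). DBP, which binds the same elements, was at 27.2, 20.1 and 22.5 TPM in GD15M_CM and 9.70, 7.72 and 13.6 TPM in GD12M_CM (1.12 ± 0.26, adjusted p = 0.12). Both were separated, and the time of day at collection is not given in the sources used here. EGR1, an immediate early factor, was at 97.2, 116 and 93.7 TPM in GD15M_CM and 13.8, 54.4 and 28 TPM in GD12M_CM (1.84 ± 0.40, adjusted p = 0.10), while HK2, hexokinase 2, was at 2.83, 5.77 and 3.26 TPM in GD15M_CM and 13.9, 17.6 and 24.2 TPM in GD12M_CM (-1.99 ± 0.36, adjusted p = 0.073). The 41 ribosomal protein genes had a median of 0.02 and 0 were separated, against 11.1% of all genes tested as higher and 7.55% as lower. GD15M_CM replicate 1 held the highest of the 6 values in 25 of the 41, against 6.43% of all genes tested.

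**Figure D5:**
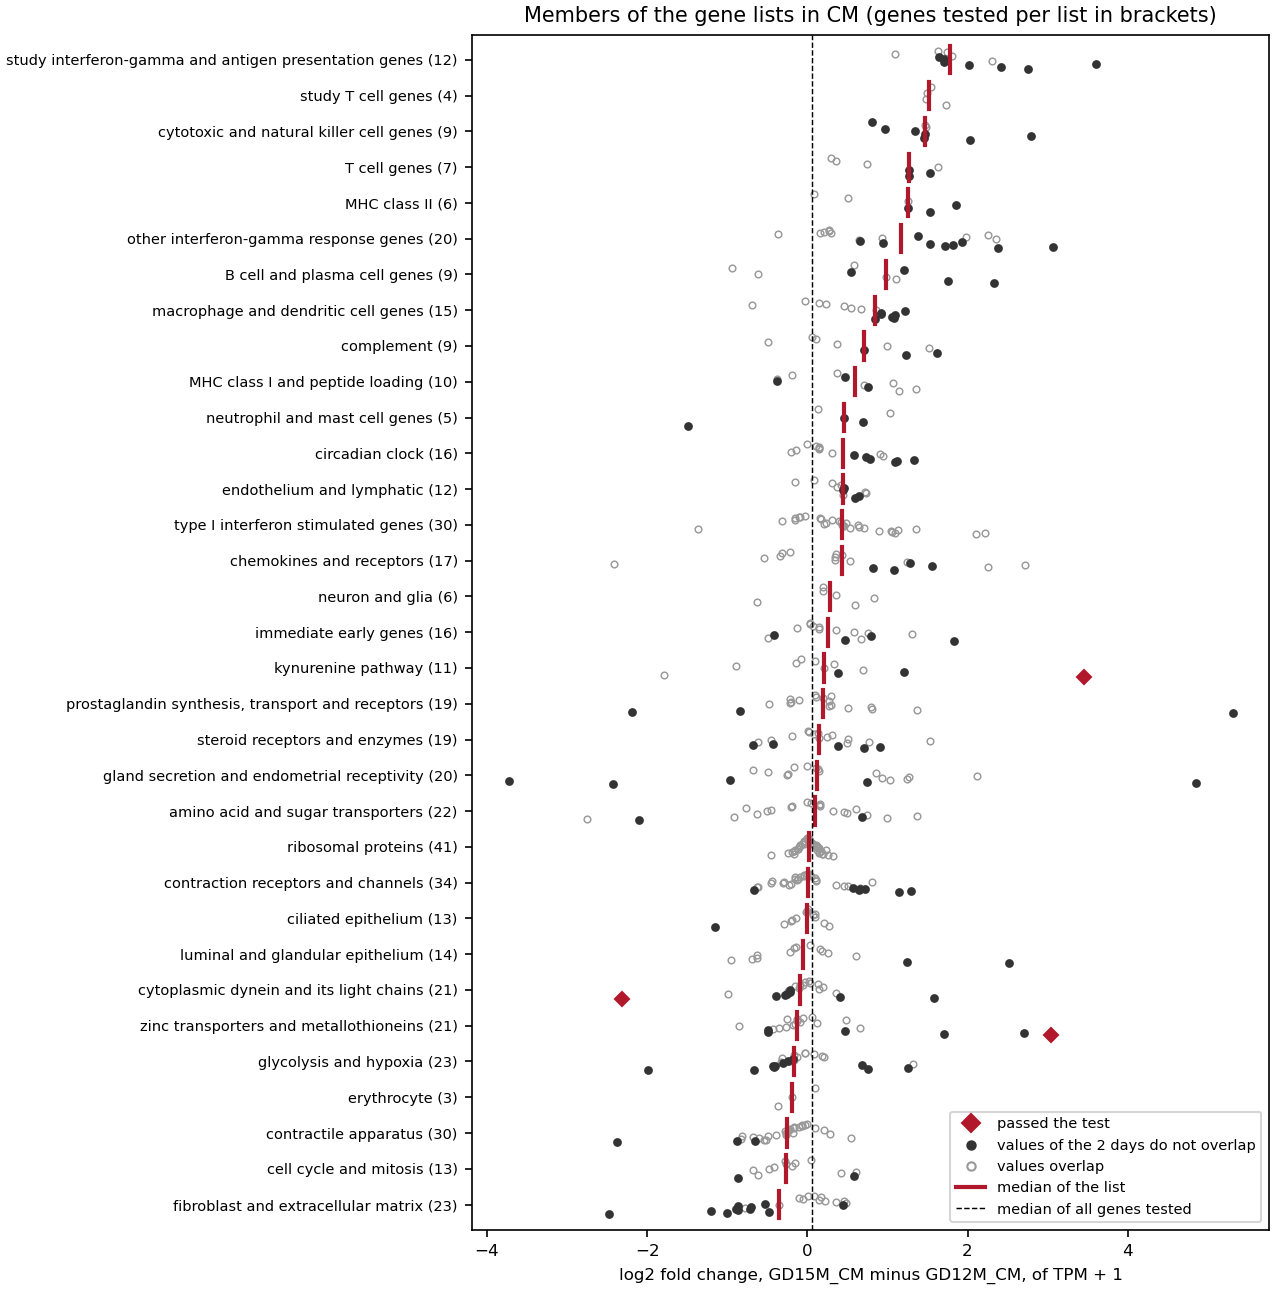
Log2 fold change of TPM + 1, GD15M_CM minus GD12M_CM, of each tested gene in the 33 lists, with the number of genes tested in brackets; diamonds passed the test, filled points did not overlap between the days, bars are list medians, the dashed line is the median of all genes, and lists named study were picked by the study. The medians ran from -0.35 for the matrix genes to 1.78 for the interferon-gamma genes picked by the study.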

How the data were processed

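Total RNA of CM and LM from 9 gilts (18 libraries) was sequenced in 150 bp read pairs. Per the study's methods, the authors aligned reads to Sscrofa11.1 with HISAT2 2.1.0, counted them per gene with HTSeq 0.9.1, and deposited 1 table of TPM values. The gene lengths, the TPM formula and the use of strand are not given in the sources used here. GD12M values carry a median of 10 significant digits and all others 15. Whether the days were processed separately is not given, and this cannot be told apart from the day.

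The day effect was fitted to log2(TPM + 1) of the 9 CM libraries by limma 3.58.1 (R 4.3.3; empirical Bayes with a variance trend), with Benjamini-Hochberg adjustment over all 14376 genes. A fold change on this scale understates the change of low genes. A gene passed when its adjusted p was below 0.05 and its log2 fold change was beyond 1 in size. Groups were called separate when no value of one overlapped the other. The difference between layers was fitted on all 18 libraries with the gilt as a block, since CM and LM of a number came from the same gilt (correlation of their deviations 0.19 to 0.53).

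Symbols were matched for 14692 of 24358 gene identifiers, and coordinates come from RefSeq's annotation of Sscrofa11.1. The comparison and the 33 gene lists were chosen with earlier results of these data known. The genes named were those that passed, the 12 with the smallest p in each direction among separated genes with a symbol, a mean of at least 5 TPM in either group and a log2 fold change beyond 1 in size, up to 4 members with the smallest p of each list, and the genes picked by the study. DYNLL2, EPCAM, ACTA2, TAGLN, MYL6, IDO1, IFNG, IFNGR1, IFNGR2, MX1, ISG15, RBP4, PTGFR, OXTR, ESR1, CD163 and COL1A1 were added after their values were seen, as were DYNC1LI1 and DCTN2. Alternatives were other pseudocounts, filters, scalings and fits, and leaving out each library. The scripts were tested on simulated data. Figures were drawn with matplotlib 3.10.9. Some genes of the lists are not reported here.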

Additional observations from a re-analysis of the deposited data

Results flagged for a closer look

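The day effect differed between the layers in 3 genes by the test of the difference itself. For KMO, the enzyme that hydroxylates kynurenine, the log2 fold change between days 15 and 12 was larger in CM than in LM by 2.80 ± 0.24 SE (adjusted p = 0.0073 by limma), and this passed in 9 of 13 alternative fits with a largest adjusted p of 0.18. For LRP2 the difference was -2.56 ± 0.29 (adjusted p = 0.033), and it passed in 5 of 13 with a largest adjusted p of 1.

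For ENSSSCG00000038056, which has no symbol in the tables used, the difference was -3.36 ± 0.38 (adjusted p = 0.033), and it passed in 5 of 13 with a largest adjusted p of 0.91. Its level was 2.54, 6.51 and 1.15 TPM in GD15M_CM and 27.0, 14.4 and 26.2 TPM in GD12M_CM. In LM it was 0.26, 4.61 and 0.31 TPM in GD15M_LM and 0.29, 0.18 and 0.15 TPM in GD12M_LM. Replicate 2 was the highest of its group on day 15 in both layers of this gene and of LRP2. Both genes were close to 0 TPM in GD12M_LM, so a fall in LM could hardly have been seen. The largest adjusted p of all 3 genes came from the fit without the gilt as a block.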

How the results depend on the processing

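Against 3 genes higher and 1 lower, 5 and 2 passed with a pseudocount of 5, 7 and 3 with a mean of at least 5 TPM, 3 and 2 with quantile normalization, 669 and 528 with library weights, and 0 and 0 with only the 6 libraries in the fit. With the replicate number as a block, 6 and 3 passed, including all 4. Same-numbered GD15M_CM and GD12M_CM libraries deviated with correlations of -0.29 to -0.0039 and others with -0.19 to 0.22, so the numbers mark no pairs. At an adjusted p below 0.1, chosen after seeing the data, 82 and 50 passed. Leaving out 1 library gave 1 to 268 higher and 0 to 52 lower. A pseudocount of 0.1, no filter, median-ratio scaling, removal of mitochondrial genes and no variance trend left the counts within 1.5 times.

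For the difference between layers (1 higher, 2 lower), 3 and 5 passed with a pseudocount of 5, 2 and 11 with median-ratio scaling, 5 and 8 with quantile normalization, and 0 and 0 without the gilt as a block. The lower count was 0 with a pseudocount of 0.1, 1 without a filter and 1 with only the 12 libraries of pregnant gilts. Leaving out 1 gilt gave 0 to 3 higher and 0 to 12 lower.

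The log2 fold change changed sign for CAMKK1 (0.057) and PLCB4 (0.0069) with library weights and for ITPR1 with median-ratio scaling (-0.053) and quantile normalization (-0.013). When each library was left out in turn it ran from -0.36 to 0.031 for IRAG1, from -0.30 to 0.15 for CAMKK1 and from -0.23 to 0.45 for ITPR1. These genes passed in no fit. Over all alternatives, single named genes kept direction and side of the threshold 1689 times, passed anew 145 times and no longer passed 10 times, and list medians moved by more than the replicate spread 14 times and by less 547 times. The causes were not tested. Without counts, the depth behind low values is unknown, and 3 gilts per group limit the precision.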
